A study of Mus musculus with 6 samples.

Results

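Genes of glycolysis and of the response to low oxygen were followed in whole mouse lungs with and without overexpression of Foxf1. Foxf1 is a forkhead transcription factor gene, and its overexpression was directed to endothelial and hematopoietic cells. The set holds 36 genes: 20 of glucose uptake and glycolysis, 4 encoding subunits and oxygen sensors of the hypoxia-inducible factor (HIF), and 12 HIF-responsive genes. It was chosen by gene function, and all probes that the array annotation gives to these genes were used. Of the 36 genes, 33 had a probe and 29 had at least 1 probe that could be tested, out of 11080 genes tested on the array. Hk2, Gpi1 and Eno1 had no probe under their own names, and Pfkfb3, Bnip3, Higd1a and Hmox1 were detected in too few lungs.

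The R26Foxf1; Tie2-cre group comprised 3 lungs and the R26-LSL-Foxf1 control group 3 lungs, all from embryos at embryonic day (E) 18.5. Both genotypes carried a Foxf1 copy knocked in at the ROSA26 locus behind a lox-STOP-lox (LSL) cassette. Embryos with Tie2-cre were heterozygous for the allele, and the controls, littermates by the study's account, lacked the Cre that removes the STOP. Tie2-cre acts in endothelial and hematopoietic cells, whereas the RNA came from whole lungs, so that fewer cells of a type and less RNA per cell cannot be told apart. The samples are labelled as biological replicates, and no label ties lungs to a litter or an array chip.

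Glycolysis splits glucose into pyruvate in the cytoplasm and yields ATP without oxygen, and lactate dehydrogenase turns the pyruvate into lactate. HIF is a dimer of an oxygen-labile alpha subunit and the stable beta subunit ARNT. In the presence of oxygen, prolyl hydroxylases of the EGLN family mark the alpha subunit for degradation. In low oxygen the dimer binds a short DNA motif near its targets, among them most glycolytic genes. Fetal lungs develop in low oxygen, and HIF takes part in the growth of their vessels.

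Values are log2 signals after background correction and quantile normalization. On this scale a step of 1 is a 2-fold difference, and the median of the probes detected in no lung was 4.44. A probe was tested when its detection p was under 0.01 on at least 3 of the 6 arrays. It was called changed at an adjusted p under 0.05 (limma, Benjamini-Hochberg over 20118 probes) with a fold change of at least 1.2. Log2 changes are R26Foxf1; Tie2-cre minus control, so that a negative one is lower in R26Foxf1; Tie2-cre lungs. Where a gene had more than 1 tested probe, the brightest stands for it, and the others are given where they differed. Between 19831 and 20043 probes were detected per lung.

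Foxf1 itself had 10.93, 10.77 and 10.83 in R26Foxf1; Tie2-cre lungs and 10.68, 10.15 and 10.77 in control lungs (log2 change 0.31, adjusted p = 0.285). It was read by 1 probe whose place in the transcript is not given, so that it may or may not read the knocked-in copy. By qRT-PCR the study reported Foxf1 overexpression in E18.5 lungs of this genotype. Several lungs stood apart in marker genes of muscle and blood cells. Genes of skeletal muscle fibers had a summed log2 signal of 10.42 to 11.98 in R26Foxf1; Tie2-cre lungs and of 12.71 to 15.67 in control lungs, with the highest value in control replicate 2. Tnnc2, a fast-muscle troponin gene, was at 7.22, 8.79 and 7.75 in R26Foxf1; Tie2-cre lungs and at 10.33, 13.28 and 10.08 in control lungs. T cell and thymus genes stood out in control replicates 1 and 2. Cd3g, a subunit of the T cell receptor complex, was at 4.64, 4.84 and 4.58 in R26Foxf1; Tie2-cre lungs and at 9.78, 11.37 and 5.18 in control lungs, and was detected only in those 2 controls. Macrophage genes summed to 12.49 to 13.56 in R26Foxf1; Tie2-cre lungs and to 13.73 to 14.11 in control lungs. Endothelial genes summed to 15.37 to 15.47 in R26Foxf1; Tie2-cre lungs and to 15.15 to 15.32 in control lungs. In both lists the sums did not overlap between the groups. Most of the macrophage sum came from Lyz2, at 12.57, 13.35 and 12.02 in R26Foxf1; Tie2-cre lungs and 13.80, 13.49 and 13.92 in control lungs. All 6 tested macrophage genes had a lower mean in R26Foxf1; Tie2-cre lungs (median log2 change −0.38), and none was called. For some of them, such as Adgre1, the groups overlapped. Among endothelial genes, only Egfl7, the brightest of the list, and Tie1 separated the groups by their brightest probe. The median log2 change of the 7 tested endothelial genes was 0.07, against 0.05 for all tested genes. Heart genes were lowest in R26Foxf1; Tie2-cre replicate 1, where they summed to 12.21. Lung epithelium genes overlapped between the groups, at 16.06 to 16.41 in R26Foxf1; Tie2-cre lungs and 16.20 to 16.50 in control lungs. The part of these cells in the values below was not tested.

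**Figure D1:**
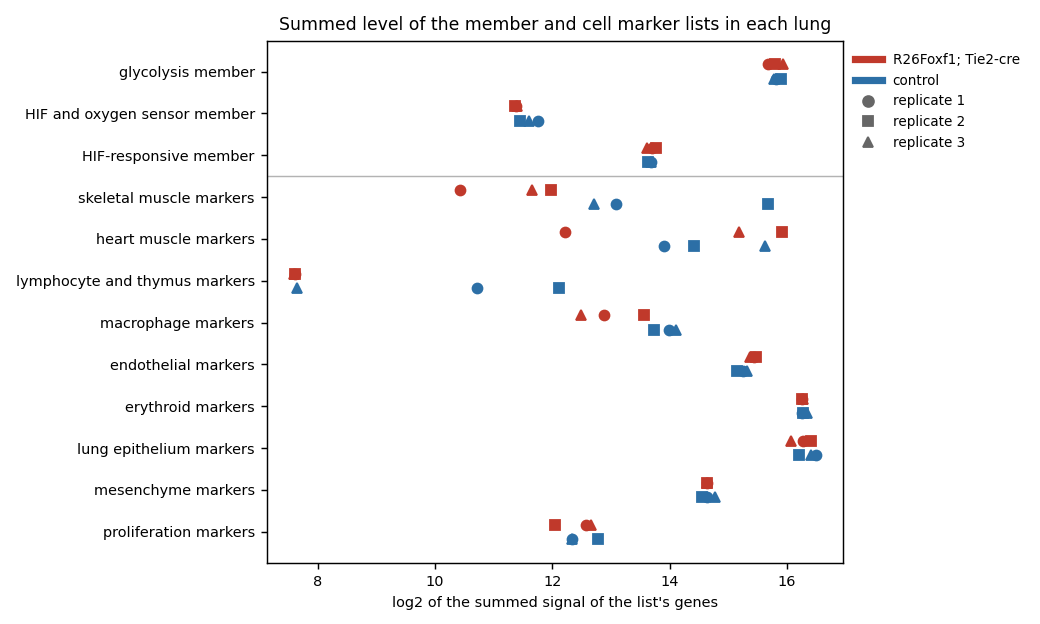
Summed signal of each gene list in each lung (horizontal axis, log2 of the sum of the genes' brightest probes), with R26Foxf1; Tie2-cre lungs in red above control lungs in blue and a marker shape for each replicate number. Each of the 3 member lists spans at most 0.38 log2 units over the 6 lungs, whereas skeletal muscle genes run from 10.42 to 15.67 and T cell and thymus genes from 7.59 to 12.12.

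No member gene was called higher in R26Foxf1; Tie2-cre lungs, and 1 of 29 was called lower by its brightest probe. The gene is P4ha1, which encodes a subunit of the enzyme that hydroxylates collagen prolines. Over all tested genes, 1.54% were called higher and 1.44% lower. At an unadjusted p under 0.05 in limma, 2 members were higher (Car9 and Ldhb) and 4 lower (P4ha1, Hif1a, Pfkp and Adm), beside 13.0% and 9.03% of all genes. The median log2 change was −0.02 over 16 glycolysis genes, −0.18 over 4 HIF subunits and sensors and −0.01 over 9 HIF-responsive genes. Over all 29 members it was −0.05, with 18 genes on the lower side (62.1%), against 0.05 and 42.3% for all tested genes. The groups did not overlap for 3 members on the higher side (10.3%) and 4 on the lower side (13.8%), and for 18.5% and 10.9% of all genes.

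Of 46 tested member probes, 3 were called, all of them lower, 1 each of Pgk1, Pfkp and P4ha1. Over the array, 2.43% of probes were called higher and 2.09% lower. None of the 15 member probes with a mean log2 signal of 10 or more was called (limma), and their log2 changes ran from −0.26 to 0.18. Over the array, 1.78% of probes this bright were called, against 5.11% of those at 7 to 10 and 5.80% of those under 7. Of the called member probes, 1 lay at 7 to 10 and 2 under 7.

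**Figure D2:**
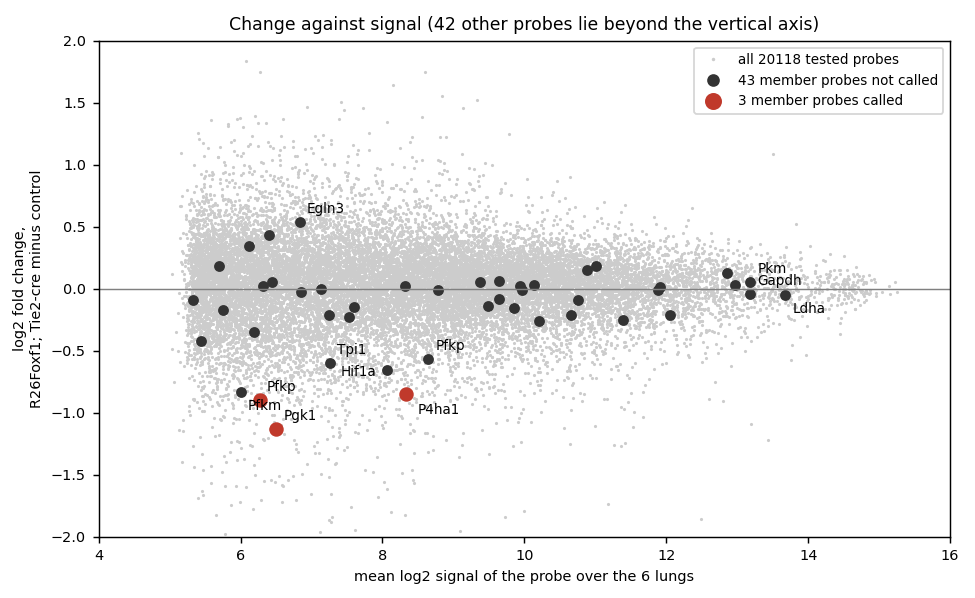
Log2 change of each tested probe (vertical axis, R26Foxf1; Tie2-cre minus control) against its mean log2 signal over the 6 lungs (horizontal axis), with all 20118 tested probes in grey, 43 member probes in black and the 3 called member probes in red. Bright member probes such as those of Ldha, Gapdh and Pkm lie near 0, and the called ones have lower signals.

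Glucose enters the cell through transporters such as GLUT1, the product of Slc2a1. Slc2a1 had 10.88, 11.09 and 10.90 in R26Foxf1; Tie2-cre lungs and 10.92, 10.88 and 10.61 in control lungs. The groups overlapped, and the log2 change was 0.15 with a 95% confidence interval of −0.13 to 0.44 (adjusted p = 0.458). Hk1, the hexokinase that traps glucose as glucose 6-phosphate, ran from 7.02 to 7.23 in R26Foxf1; Tie2-cre lungs and from 6.80 to 7.34 in control lungs. Pfkfb3, whose product makes the activator of phosphofructokinase, was not detected in any lung.

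Phosphofructokinase commits glucose to glycolysis and is built from 3 kinds of subunit. The liver-type Pfkl had a log2 change of 0.01 (interval −0.24 to 0.26) on its brighter probe and of −0.17 (interval −0.44 to 0.09, adjusted p = 0.359) on its dimmer one. Both tested probes of the platelet-type Pfkp were lower in all R26Foxf1; Tie2-cre lungs than in any control lung. The dimmer one had 5.67, 6.14 and 5.65 in R26Foxf1; Tie2-cre lungs and 6.84, 6.41 and 6.90 in control lungs. It fell by 0.90 on the log2 scale (standard error 0.18, adjusted p = 0.0447), to 5.82 ± 0.28 against 6.72 ± 0.27 (SD, n = 3 each). The brighter one had 8.14, 8.65 and 8.29 in R26Foxf1; Tie2-cre lungs and 8.91, 8.70 and 9.19 in control lungs. Its log2 change was −0.57 (standard error 0.18, adjusted p = 0.0957), which missed the threshold. The dimmer probe also missed it with no background model (adjusted p = 0.055), no filter on dim probes (0.089), the replicate block (0.101) and the authors' normalized values, where its log2 change was −0.26 (adjusted p = 0.0624 in limma and 0.160 in the methods' test). In both genotypes replicate 2 stood nearest to the other group.

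The muscle-type Pfkm had 3 tested probes. The brightest had 10.84, 11.16 and 11.30 in R26Foxf1; Tie2-cre lungs and 10.79, 11.18 and 10.80 in control lungs, with a log2 change of 0.18 (adjusted p = 0.523). The dimmest had 5.28, 5.93 and 5.55 in R26Foxf1; Tie2-cre lungs and 6.11, 6.19 and 6.94 in control lungs, with a log2 change of −0.83 (adjusted p = 0.0959). The probes of this gene thus differed in sign, and no probe of it was called. Skeletal muscle genes were highest in control replicate 2, which held the highest control value of the brightest Pfkm probe and not of the dimmest.

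No enzyme from aldolase to glyceraldehyde 3-phosphate dehydrogenase was called on any probe. Aldoa, the main aldolase, had 11.66, 11.97 and 12.22 in R26Foxf1; Tie2-cre lungs and 12.18, 12.24 and 12.07 in control lungs. Its log2 change was −0.21 with an interval of −0.57 to 0.15, and R26Foxf1; Tie2-cre replicate 1 was the lowest lung. Aldoc, the brain-type aldolase, had a log2 change of 0.05. Tpi1, which interconverts the triose phosphates, had 12.78, 12.98 and 13.18 in R26Foxf1; Tie2-cre lungs and 12.88, 13.07 and 12.89 in control lungs on its brightest probe, with a log2 change of 0.03. Its dimmest probe had 6.83, 7.03 and 7.03 in R26Foxf1; Tie2-cre lungs and 7.40, 7.94 and 7.34 in control lungs. The groups did not overlap there, and the log2 change of −0.60 had an adjusted p of 0.0832. Gapdh, the glyceraldehyde 3-phosphate dehydrogenase gene that the study also used as its internal control for qRT-PCR, had 13.05, 13.12 and 13.30 in R26Foxf1; Tie2-cre lungs and 13.13, 13.27 and 13.18 in control lungs. Its log2 change was −0.04 with an interval of −0.29 to 0.21 (adjusted p = 0.846), and became 0.01 with median scaling of the arrays.

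Pgk1 encodes phosphoglycerate kinase, the first step of glycolysis that makes ATP. Its dimmer probe had 5.71, 5.90 and 6.20 in R26Foxf1; Tie2-cre lungs and 7.05, 7.01 and 7.15 in control lungs. All R26Foxf1; Tie2-cre lungs lay below all control lungs, and the control lungs lay close together. The probe fell by 1.13 on the log2 scale (standard error 0.14, adjusted p = 0.0258), to 5.94 ± 0.25 against 7.07 ± 0.07 (SD, n = 3 each), the largest change of any member probe on this scale. In the authors' normalized values, on their variance-stabilized scale, the change was −0.36 (adjusted p = 0.0308 in limma), smaller than that of P4ha1 there. The call was lost with the replicate block (adjusted p = 0.0551), with no filter on dim probes (0.0517) and in the methods' test on the authors' values (0.119). It was also lost without R26Foxf1; Tie2-cre replicate 1 or 3 or control replicate 1 or 3 (adjusted p = 0.0573 to 0.105, limma). In those settings at most 0.457% of all tested probes were called, against 4.51% in the main setting. The brighter probe had 11.17, 11.32 and 11.30 in R26Foxf1; Tie2-cre lungs and 11.51, 11.67 and 11.37 in control lungs. The groups did not overlap there either, but the log2 change of −0.25 (standard error 0.11) did not pass the threshold (adjusted p = 0.207). The interval of the brighter probe, −0.52 to 0.01, and that of the dimmer, −1.46 to −0.81, did not overlap. Pgk1 lies on the X chromosome, and R26Foxf1; Tie2-cre replicate 3 was the only lung in which the Y-linked Eif2s3y was detected (8.96, against 4.26 to 4.44 in the other lungs). In that lung Xist, which female cells express, read 4.41, against 11.87 to 12.69 in the other lungs. By these genes sex was not balanced between the groups in any comparison here, and its part was not tested. Without that lung the dimmer Pgk1 probe had a log2 change of −1.27 (adjusted p = 0.0584 in limma).

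No gene of the last steps was called. Pgam1, a phosphoglycerate mutase gene, had a log2 change of −0.16. For enolase only a probe of Eno1b, a near-identical copy of Eno1 that is not counted among the members, was tested. It read 6.19, 6.32 and 6.30 in R26Foxf1; Tie2-cre lungs and 6.34, 5.94 and 5.72 in control lungs (adjusted p = 0.333). Pkm, which encodes the pyruvate kinase of most tissues, had a log2 change of 0.05 with an interval of −0.20 to 0.30. Ldha, the lactate dehydrogenase subunit that favors lactate, had 13.55, 13.66 and 13.72 in R26Foxf1; Tie2-cre lungs and 13.73, 13.75 and 13.62 in control lungs. Its log2 change was −0.05 with an interval of −0.28 to 0.18 (adjusted p = 0.778). Ldhb, the heart-type subunit, had 6.31, 6.31 and 6.26 in R26Foxf1; Tie2-cre lungs and 6.02, 6.08 and 5.75 in control lungs. All R26Foxf1; Tie2-cre lungs lay above all control lungs, with a log2 change of 0.34 that missed the threshold (standard error 0.11, adjusted p = 0.118).

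Pdk1 encodes a kinase that keeps pyruvate out of the mitochondrion. Its brighter probe had 9.48, 9.32 and 9.47 in R26Foxf1; Tie2-cre lungs and 9.72, 9.54 and 9.43 in control lungs, and its dimmer probe 6.26, 5.80 and 5.97 in R26Foxf1; Tie2-cre lungs and 6.72, 5.89 and 6.49 in control lungs. The log2 changes, −0.14 and −0.35, were not significant (adjusted p = 0.468 and 0.350). Slc16a3, the lactate exporter MCT4, was detected in 3 lungs and ran from 4.94 to 5.53 in R26Foxf1; Tie2-cre lungs and from 4.94 to 5.64 in control lungs.

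**Figure D3:**
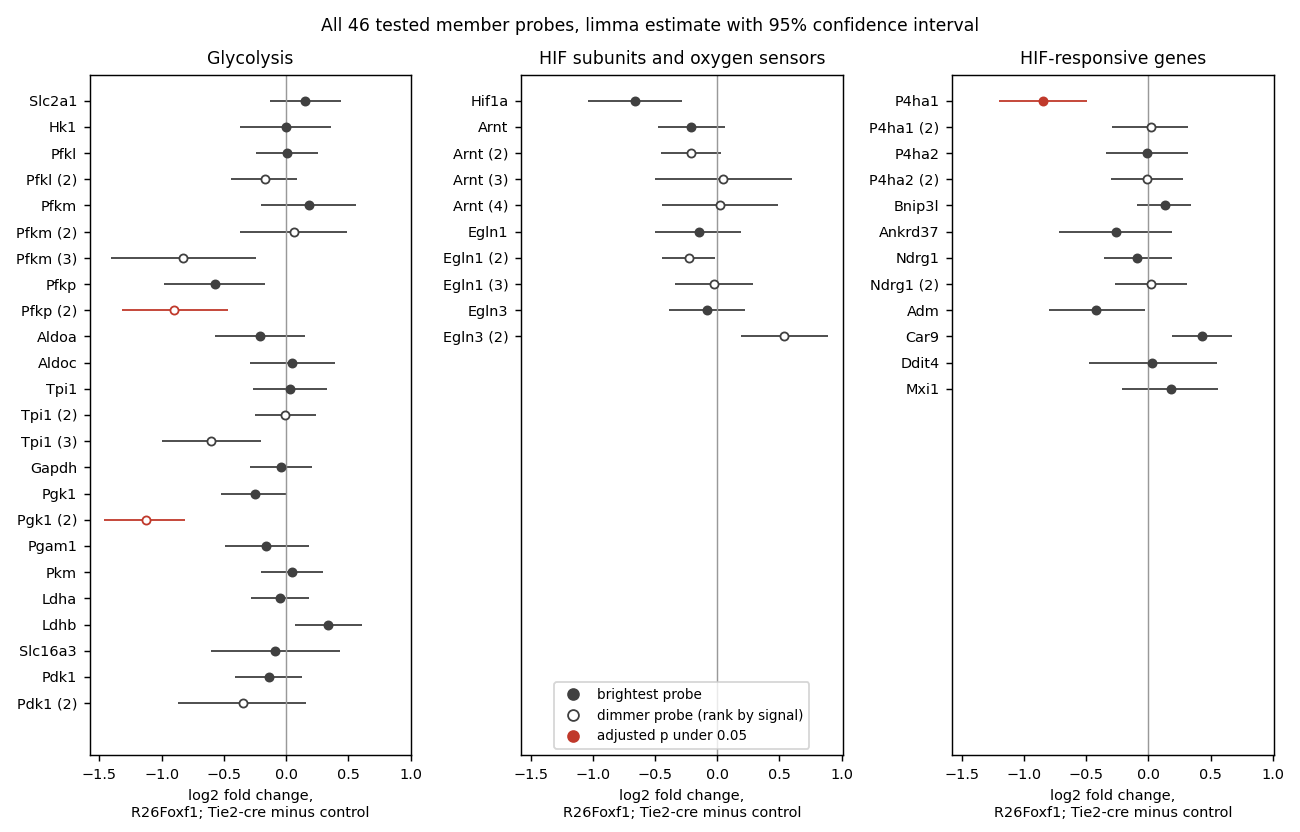
Log2 change (horizontal axis, R26Foxf1; Tie2-cre minus control) with its 95% confidence interval for all 46 tested member probes, by role, with filled points for a gene's brightest probe, open points for dimmer ones (numbered by signal) and red for called probes. Most intervals cross 0, the dimmer probes of Pgk1 and Pfkp and the brighter probe of P4ha1 are called lower, and Car9, Ldhb and the dimmer probe of Egln3 lie above 0 without passing the threshold.

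Among the regulators, Hif1a, the oxygen-labile alpha subunit of HIF-1, had the largest difference. Of its 3 probes 1 was tested, and the others were detected in no lung. On the tested probe Hif1a had 7.81, 7.73 and 7.68 in R26Foxf1; Tie2-cre lungs and 8.43, 8.07 and 8.70 in control lungs. Every R26Foxf1; Tie2-cre lung lay below every control lung, at 7.74 ± 0.06 against 8.40 ± 0.32 (SD, n = 3 each). The log2 change of −0.66 (standard error 0.16) had an adjusted p of 0.0607, just outside the threshold. Of 18 alternative settings it passed in 4, with cyclic loess normalization (adjusted p = 0.0483), with only probes detected on all 6 arrays (0.0497), with a variance trend and robust moderation (0.0252) and without control replicate 2 (0.0242). It did not pass in the others, where the adjusted p ranged up to 0.193. Among them were the replicate block (0.100), no filter on dim probes (0.116) and each of the other lungs left out (0.108 to 0.175). Over the array, the 4 settings in which Hif1a passed called 4.58%, 6.08%, 9.27% and 8.47% of tested probes, against 4.51% in the main one. The replicate block called 0.229%, no filter 0.128% and the other lungs left out 0.00994% to 1.78%. In the authors' normalized values the log2 change was −0.38 (adjusted p = 0.0638 in limma), where 5.22% of probes were called without Hif1a. This is the RNA of a subunit that is regulated mainly through the stability of its protein, which the arrays did not measure.

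Arnt, the beta subunit, had 10.61, 10.47 and 10.57 in R26Foxf1; Tie2-cre lungs and 10.92, 10.59 and 10.76 in control lungs on the brightest of its 4 tested probes. The log2 change was −0.21 (adjusted p = 0.292), and those of the other probes were −0.21, 0.05 and 0.02. Egln1, the main oxygen-sensing hydroxylase, had log2 changes of −0.15, −0.23 and −0.03 on its 3 probes. Egln3, a hydroxylase that HIF itself induces, had 9.39, 9.72 and 9.68 in R26Foxf1; Tie2-cre lungs and 9.82, 9.68 and 9.53 in control lungs on its brighter probe, with a log2 change of −0.08 (adjusted p = 0.728). Its dimmer probe, not annotated to a curated RefSeq mRNA, had 7.01, 7.01 and 7.28 in R26Foxf1; Tie2-cre lungs and 6.84, 6.36 and 6.49 in control lungs. There the groups did not overlap, and the log2 change of 0.54 had an adjusted p of 0.0814. With median scaling the brighter probe also turned to 0.04.

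P4ha1, called lower, had 2 tested probes of similar brightness that gave different readings. The slightly brighter one, not annotated to a curated RefSeq mRNA, had 7.85, 8.20 and 7.70 in R26Foxf1; Tie2-cre lungs and 8.88, 8.58 and 8.82 in control lungs. It fell by 0.85 on the log2 scale (standard error 0.15, adjusted p = 0.0393), to 7.91 ± 0.26 against 8.76 ± 0.16 (SD, n = 3 each), and the groups did not overlap. The other probe, annotated to the RefSeq mRNA, had 8.24, 8.44 and 8.30 in R26Foxf1; Tie2-cre lungs and 8.40, 8.45 and 8.07 in control lungs. Its log2 change was 0.02 with an interval of −0.29 to 0.32 (adjusted p = 0.955), outside the interval of the called probe, −1.20 to −0.49. The call for P4ha1 as a gene therefore rested on which probe was the brighter, and with the mean of its probes the log2 change was −0.42 (adjusted p = 0.0895). P4ha2, which encodes another form of the same subunit, had a log2 change of −0.01 on both tested probes.

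**Figure D4:**
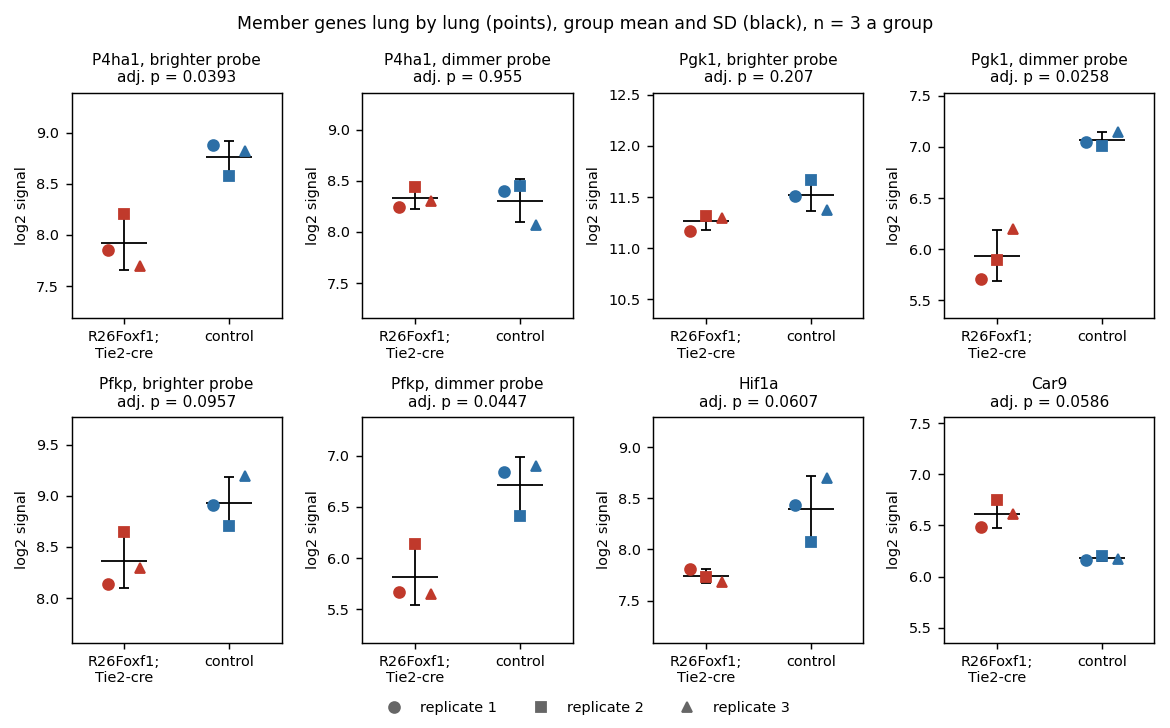
Log2 signal (vertical axis, each panel spanning the same range of 2.2) of 8 member probes in the 3 R26Foxf1; Tie2-cre lungs (red, left) and the 3 control lungs (blue, right), with the group mean and SD in black and limma's adjusted p above each panel. Both tested probes of Pgk1 and Pfkp separate the groups, the brighter probe of P4ha1 does and the dimmer does not, Hif1a is lower and Car9 higher in every R26Foxf1; Tie2-cre lung.

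Of the genes that HIF induces, Car9, a membrane carbonic anhydrase much used as a hypoxia marker, was the nearest to a call on the higher side. Car9 had 3 probes, of which 1 was tested and the others were detected in no lung. The tested one had 6.48, 6.75 and 6.61 in R26Foxf1; Tie2-cre lungs and 6.16, 6.20 and 6.17 in control lungs. The groups did not overlap, at 6.61 ± 0.13 against 6.18 ± 0.02 (SD, n = 3 each), and the log2 change of 0.43 (standard error 0.10) had an adjusted p of 0.0586. Of 18 alternative settings it passed in 1, with only probes detected on all 6 arrays (adjusted p = 0.0493, 6.08% of probes called). Over all of them the adjusted p ran from 0.0493 to 0.220, and the log2 change was 0.13 in the authors' normalized values (adjusted p = 0.157). Adm, the vasodilator adrenomedullin, had 5.10, 5.53 and 5.07 in R26Foxf1; Tie2-cre lungs and 5.49, 5.55 and 5.89 in control lungs. The groups overlapped, Adm was detected in 4 lungs, and the log2 change of −0.42 had an adjusted p of 0.165.

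Ankrd37, a HIF target of little-known function, had 10.32, 10.31 and 9.61 in R26Foxf1; Tie2-cre lungs and 10.43, 10.33 and 10.27 in control lungs. Its log2 change of −0.26 (adjusted p = 0.429) went with 1 low lung, R26Foxf1; Tie2-cre replicate 3. Bnip3l, a mitophagy receptor, had 12.87, 12.95 and 12.93 in R26Foxf1; Tie2-cre lungs and 12.77, 12.75 and 12.85 in control lungs, a log2 change of 0.13 (adjusted p = 0.419) with groups that did not overlap. Ndrg1, a stress-induced gene, had −0.09 and 0.02 on its 2 probes, Ddit4, an inhibitor of mTOR signaling, 0.03, and Mxi1, a MYC antagonist, 0.18 as log2 changes, none of them called. Hmox1, the heme oxygenase, passed detection in 1 lung, R26Foxf1; Tie2-cre replicate 3, with 5.01, 5.30 and 6.33 in R26Foxf1; Tie2-cre lungs and 4.76, 5.17 and 4.65 in control lungs, and was not tested. Bnip3 and Higd1a were detected in no lung.

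The motif that HIF binds has the core ACGTG or GCGTG, which read CACGT and CACGC on the other strand. Both were searched on both strands in the 250 bases before each transcription start in RefSeq (GRCm38.p6), where 33 of the 36 members had a window. ACGTG occurred before 20 of these 33 members (60.6%), before 24.6% of the 8935 tested genes with a window and before 18.5% of all 27025 genes with one. GCGTG occurred before 22 of the 33 members (66.7%), before 48.8% of the tested genes and before 30.9% of all genes, a smaller contrast. By role ACGTG was found in 10 of 20 glycolysis genes, 3 of 4 HIF subunits and sensors and 7 of 9 HIF-responsive genes. Among non-members in the lists read below, ACGTG occurred before 15 of 30 other HIF-responsive genes with a window. It occurred before 8 of 24 other glycolytic and glucose genes and 2 of 9 other HIF subunits and regulators. GCGTG occurred before 23 of 30 (76.7%), 10 of 24 and 3 of 9 genes of these lists. These shares were not matched for base composition, and a match is not a site shown to be bound. The sequences before 2 genes with a called probe, P4ha1 (chr10:59323046-59323295, + strand) and Pgk1 (chrX:106186850-106187099, + strand), are set beside that of Ldha (chr7:46845554-46845803, + strand), which was not called, with ACGTG on either strand in capitals.
P4ha1: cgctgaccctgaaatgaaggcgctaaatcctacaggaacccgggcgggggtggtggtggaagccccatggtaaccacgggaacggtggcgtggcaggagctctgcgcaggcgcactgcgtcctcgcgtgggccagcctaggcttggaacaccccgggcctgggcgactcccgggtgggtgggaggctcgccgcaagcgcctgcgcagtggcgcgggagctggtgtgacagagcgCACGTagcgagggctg
Pgk1: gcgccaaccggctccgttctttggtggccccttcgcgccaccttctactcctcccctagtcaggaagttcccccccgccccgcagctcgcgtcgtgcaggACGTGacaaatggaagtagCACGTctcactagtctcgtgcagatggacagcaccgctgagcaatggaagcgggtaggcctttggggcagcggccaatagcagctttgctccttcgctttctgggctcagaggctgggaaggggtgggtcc
Ldha: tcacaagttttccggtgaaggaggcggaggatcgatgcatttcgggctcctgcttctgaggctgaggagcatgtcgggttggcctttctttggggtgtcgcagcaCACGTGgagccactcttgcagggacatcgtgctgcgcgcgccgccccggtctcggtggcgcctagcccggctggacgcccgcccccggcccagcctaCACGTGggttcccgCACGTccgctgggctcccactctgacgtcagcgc

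P4ha1 carried 1 ACGTG, which began 16 bases before the start, and Pgk1 carried 2, at 150 and 131 bases. Ldha carried 5 matches in 3 places of the window shown, the palindrome CACGTG counting on both strands. A second Ldha window (chr7:46846832-46847081) had 0 ACGTG and 1 GCGTG. Pfkp, with a called probe, had no ACGTG and 3 GCGTG in its window. Slc2a1, Hif1a and Car9 had 1, 3 and 1 ACGTG. Among tested members, the 17 with ACGTG had a median log2 change of −0.08, from −0.85 to 0.43, and the 10 without it one of −0.02, from −0.57 to 0.34.

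Other genes of these pathways were read from 3 further lists. Of 28 other glycolytic isoenzymes and genes of glucose storage and use, 17 were tested and none was called by its brightest probe (limma; 0 at an unadjusted p under 0.05), with a median log2 change of 0.03. The widest differences were in Eno3, the muscle enolase, with 9.12, 10.32 and 10.08 in R26Foxf1; Tie2-cre lungs and 10.05, 11.69 and 10.49 in control lungs (log2 change −0.90, adjusted p = 0.252), and in Fbp1, a gluconeogenic enzyme (0.32, adjusted p = 0.653). Eno3 was highest in control replicate 2, where skeletal muscle genes were highest as well.

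Of 13 other HIF subunits and regulators, 11 were tested and none was called by its brightest probe, with 1 higher and 1 lower at an unadjusted p under 0.05. Hif3a, an alpha subunit that can restrain HIF, had 12.29, 12.12 and 12.17 in R26Foxf1; Tie2-cre lungs and 11.81, 11.80 and 11.76 in control lungs (log2 change 0.41, adjusted p = 0.0563). Epas1, the alpha subunit of HIF-2 that endothelial cells express strongly, had 7.87, 7.95 and 7.54 in R26Foxf1; Tie2-cre lungs and 8.40, 7.95 and 8.76 in control lungs (log2 change −0.58, adjusted p = 0.136). A dimmer probe of Ep300, a coactivator of HIF, was called higher (log2 change 0.85, adjusted p = 0.0458), while its brightest had a log2 change of 0.05.

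Of 37 other HIF-responsive genes, 28 were tested, with a median log2 change of 0.03, 17 genes on the higher side and 11 on the lower. Tmem45a, a transmembrane protein gene, was the only one called by its brightest probe. It had 8.09, 8.30 and 8.12 in R26Foxf1; Tie2-cre lungs and 8.82, 8.61 and 9.04 in control lungs and fell by 0.66 on the log2 scale (adjusted p = 0.0441). A dimmer probe of Tmem45a had a log2 change of −0.04.

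The calls, like those over the whole array, depended on single lungs. Without R26Foxf1; Tie2-cre replicate 1 or 3, or without control replicate 1 or 3, no member probe was called. Without R26Foxf1; Tie2-cre replicate 2 the same 3 probes were called, and without control replicate 2 those 3 and Hif1a. Over the array, 4.51% of probes were called with all lungs, and 0.00994% to 0.457% where no member probe was. The share was 1.78% without R26Foxf1; Tie2-cre replicate 2 and 8.47% without control replicate 2. Over these 6 settings the log2 change of P4ha1 lay between −0.99 and −0.74, the dimmer Pgk1 probe between −1.27 and −1.02 and the dimmer Pfkp probe between −1.06 and −0.80. In the authors' normalized values the changes were −0.52, −0.36 and −0.26, so that their size depended on the scale. Without control replicate 2, the lung highest in skeletal muscle and T cell genes, the 3 changes were −0.94, −1.16 and −1.05. Across normalizations the split of called probes over the array moved, with 53.7% higher after quantile normalization, 61.7% after median scaling and 39.3% after cyclic loess, and the median of all tested probes was 0.03, 0.10 and −0.01 log2 units. Pgk1, Pfkp and P4ha1 were called lower under all 3.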

How the data were processed

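Whole-lung RNA of 6 mouse embryos was measured on Illumina mouse WG-6 v2.0 BeadChips with 45281 probes, 1 lung per array. The authors deposited a background-subtracted scanner signal (intensity) per probe and, per the file headers, a detection p-value. They also deposited values on a log2-like scale after robust spline normalization and variance stabilization, whose columns all had a median of 7.44. How that table was centred is not given in the sources used here. Changes given in the authors' normalized values are differences on that scale, without reversing the variance stabilization. The 1.2-fold limit was applied to these differences, whereas the study reversed the transformation before taking fold changes.

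The intensities were background-corrected with neqc from limma 3.58.1 (R 4.3.3; offset 16, background level taken from the detection p-values) and quantile normalized. The 20118 tested probes were fitted with lmFit and eBayes on all 6 lungs without covariates. The thresholds, an adjusted p under 0.05 and 1.2-fold, are those the study states for its arrays. Symbols were updated by gene ID (34807 of 34885 probes with 1 symbol matched). The comparison was tested on simulated data. The members and all lists were chosen with earlier results of these data known. Lung values are given for members with a called probe, the 8 others with the largest change of the brightest probe and 8 fixed genes, 3 of which also fall under the first 2 rules. Probes that disagree are given too, as for Tpi1, while Bnip3l and Hmox1 were added after their values were seen. Other lists give called genes or the 2 largest changes, and marker lists at most 2 genes. The number of lungs limits the precision.

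Alternatives were: no background model (deposited signals floored at 16), cyclic loess, median scaling, the deposited values, every probe kept, detection on all 6 arrays, a variance trend, the methods' t-test, a replicate block, no fold limit, probes averaged per gene, and each lung left out. Leaving out control replicates 1 and 2 together was chosen after seeing the data. The chromatin immunoprecipitation data were not analysed here.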

Additional observations from a re-analysis of the deposited data

How the results depend on the processing

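Of the member genes, 0 were called higher and 1 lower (P4ha1). Cyclic loess gave 2 lower (with Hif1a), a variance trend with robust moderation 3 (with Hif1a and Pfkp), and probes detected on all 6 arrays 1 higher (Car9) and 2 lower. Over the array these settings called 4.58%, 9.27% and 6.08% of tested probes, against 4.51% in the main one. No filter on dim probes, which adjusts over 45281 probes, gave 0 lower, as did control replicates 1 and 2 left out together, where the lone control is assumed to vary like the other lungs. The methods' t-test on the deposited values called 0 members after Benjamini-Hochberg adjustment and 0 probes of the array. Without adjustment, 1838 probes had p under 0.05 and differed by 1.2-fold or more on the variance-stabilized scale. Among these were 0 member probes higher and 3 lower. The study took fold changes after reversing that transformation, so these counts are not at its own fold limit. With each lung left out in turn, 0 to 2 members were called lower and 0 higher, while 0.00994% to 8.47% of all tested probes were called. With no background model, the deposited values, median scaling or no fold limit the counts were 0 and 1, and the mean of a gene's probes called Pgk1 (−0.69, adjusted p = 0.0326) in place of P4ha1.

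No label says whether replicate numbers pair the lungs, and 3 lungs a group are too few to settle it. Deviations of same-numbered lungs correlated at 0.29, −0.04 and −0.03, and those of differently numbered lungs at −0.198 to 0.175. With a replicate block 0 members were called lower, and 46 probes of the array in place of 908. The members' median log2 fold change moved with median scaling to 0.02 and lay between −0.09 and 0.00 otherwise. Among named genes, signs turned for Egln3 (0.04) and Gapdh (0.01) with median scaling, which also put the median of all tested probes at 0.10 in place of 0.03, Egln3 (0.02) and Gapdh (0.01) without R26Foxf1; Tie2-cre replicate 1 (from −0.16 to 0.02 and from −0.11 to 0.01 over the 6 lungs left out), Egln3 (0.07) and Ldha (0.03) without both controls, and Egln3 (0.23) and Pfkm (−0.20) with the mean of a gene's probes. Probes with a dim signal have the least room above background.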
